A study of Rattus norvegicus with 16 samples.

Results

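Rbm3 and Cirbp, the genes of 2 cold-inducible RNA-binding proteins, were followed across 16 rat hypothalami. They are 2 of 14217 genes that the array's annotation table names alone on a probe set, with 4 of 31042 probe sets, namely 1 for Rbm3 (1371583_at) and 3 for Cirbp, called Cirbp A (1369083_at), Cirbp B (1382809_at) and Cirbp C (1385904_at). The pair was chosen on signals of these same 16 arrays, with the group differences known, so those differences are given as descriptions, without p-values. All 4 probe sets passed the filter on dim probe sets. The rats were male Wistar rats of 7 to 8 weeks, with 4 in each group. The groups were rats restrained for 2 h while they inhaled (R)-(-)-linalool (called stress with linalool), rats restrained for 2 h without the odour (stress), rats that inhaled linalool for 2 h without restraint (linalool), and rats that had neither (control). Linalool is a floral-smelling terpene alcohol of many plant oils. Each rat gave 1 Affymetrix array of total hypothalamic RNA.

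Rbm3 and Cirbp proteins each carry a single RNA recognition motif followed by a glycine-rich tail. In mammalian cells both transcripts rise when the temperature falls by a few degrees and decline on warming, the opposite of heat shock genes. In mice the daily swing of body temperature makes both transcripts cycle, and both proteins bind RNAs of clock genes and influence where these are polyadenylated. RBM3 is also known from the mouse brain, where its induction by cooling protects synapses. Body temperature was not among the measurements used here.

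The promoters of both genes are shown because a short cold-responsive element has been described in the mouse Cirbp promoter. The sequences are RefSeq's for build GRCr8, 300 bases placed around 1 start per gene, given 5′ to 3′ on the gene's own strand, and both genes were matched by symbol. The outer boundary of each gene, at base 17020863 for Rbm3 and 10189623 for Cirbp, lies inside its window, so the start used is not the outermost one. That element, TCCCCGCC, the GC box GGGCGG and the CCAAT box are in capitals wherever they occur on either strand. Rbm3 lies on the plus strand at chrX:17020655-17020954 and Cirbp on the minus strand at chr7:10189426-10189725.
Rbm3: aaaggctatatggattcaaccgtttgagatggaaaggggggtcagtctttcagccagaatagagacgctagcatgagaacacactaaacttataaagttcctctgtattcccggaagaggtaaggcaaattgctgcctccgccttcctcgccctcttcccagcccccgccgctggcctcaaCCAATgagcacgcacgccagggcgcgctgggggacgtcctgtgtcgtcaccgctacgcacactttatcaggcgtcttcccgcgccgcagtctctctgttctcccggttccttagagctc
Cirbp: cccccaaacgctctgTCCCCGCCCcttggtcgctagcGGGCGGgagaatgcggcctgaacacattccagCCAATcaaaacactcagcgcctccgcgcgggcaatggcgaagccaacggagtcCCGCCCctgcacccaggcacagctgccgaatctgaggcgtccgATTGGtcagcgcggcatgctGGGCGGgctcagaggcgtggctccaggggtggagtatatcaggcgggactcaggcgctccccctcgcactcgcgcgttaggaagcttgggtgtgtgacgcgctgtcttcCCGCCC

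The Cirbp promoter holds TCCCCGCC once, in bases 16 to 23 of the window, where it overlaps 1 of its 5 GC boxes. The Rbm3 promoter holds neither of these motifs and 1 CCAAT, against 2 in Cirbp. Of 33469 rat promoters of this length, 4.79% hold TCCCCGCC, 33.1% hold GGGCGG and 37.5% hold CCAAT. Neither promoter holds the heat shock element of 3 units (0.798% of promoters), its shorter form GAANNTTC (8.59%) or the E-box CACGTG (6.42%). GC content is 56.3% in the Rbm3 window and 67.0% in the Cirbp window, with a median of 51.7% over all promoters. A match describes the letters in this window, not a bound site.

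Array medians ran from 67.03 to 127.4 in the deposited signals, so the values used are quantile-normalized, and means and differences are in log2 units after adding 16 to the signal. The hybridization spike-in BioC split the arrays into 3 with high signals (884.4 to 1014; stress with linalool rat 2 and linalool rats 2 and 4) and 13 with low ones (201.3 to 271.4). No label names a batch. Of 12 markers of the hypothalamus 11 were on the array and 8 passed the filter, among them Pmch, Oxt, Avp and Hcrt. Sim1, Otp and Pomc were not above the filter, with median signals of 39.7, 26.4 and 4.78. Of the markers of neighbouring tissue, 4 of 4 for thalamus, 2 of 5 for choroid plexus and 0 of 5 for cortex and hippocampus passed. Of 7 pituitary markers 3 passed the filter, namely Tshb, Lhb and Cga. Fshb, Gh1, Pou1f1 and Prl did not, with median signals of 44.6, 30.7, 2.64 and 1.62. The summed signal of the 3 that passed ranged widely, from 2330 to 6009 in stress with linalool, 4517 to 6998 in stress, 2750 to 4312 in linalool and 207.7 to 6891 in control rats.

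Rbm3 was lower in restrained than in unrestrained rats, with and without the odour. Its normalized signal was 625, 365, 542 and 552 in the rats restrained with linalool, 529, 496, 723 and 759.7 in those restrained without it, 729.7, 1002, 821 and 996 in linalool rats, and 962, 1172, 952 and 958 in control rats. Restrained rats lay below their unrestrained counterparts in both odour conditions, with no overlap inside either condition. The highest stress rat (759.7) lay above the lowest linalool rat (729.7).

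**Figure D1:**
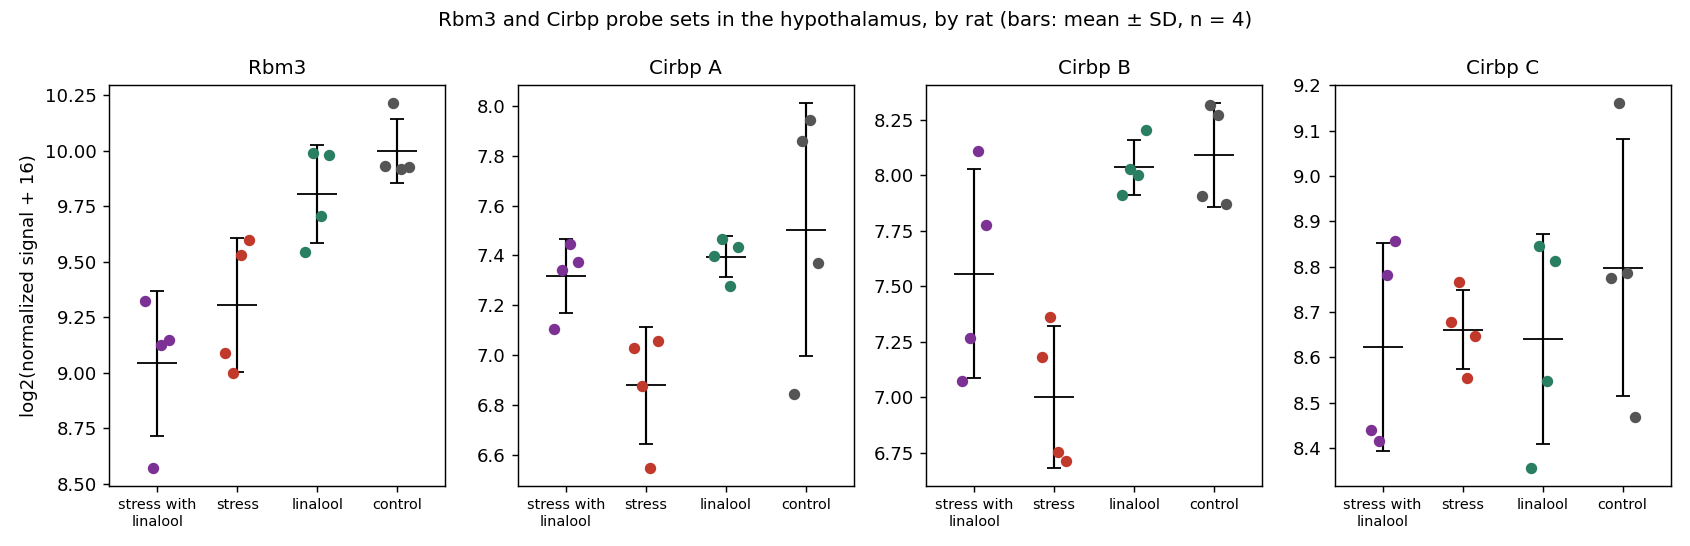
Signal of each rat for the Rbm3 probe set and the 3 Cirbp probe sets, on the log2(normalized signal + 16) scale, with a separate vertical axis per panel that does not start at 0. Points are rats, horizontal marks are group means and bars are the SD (n = 4). Rbm3 means were 9.04 in stress with linalool, 9.30 in stress, 9.81 in linalool and 10.00 in control rats, whereas Cirbp C, on the right, ran between 8.62 and 8.80.

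Rbm3 averaged 9.30 ± 0.30 in stress and 10.00 ± 0.14 in control rats (SD, n = 4), a log2 difference of -0.69 (SE 0.17), or 61.8% of the control level. In the rats restrained with linalool it averaged 9.04 ± 0.33, against 9.81 ± 0.22 in linalool rats, a difference of -0.76 (SE 0.17), or 58.9%. The average stress effect, taken over both odour conditions, was -0.73 (SE 0.12). In bulk tissue, fewer cells of a type and less RNA per cell cannot be told apart.

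Rbm3 showed smaller differences with the odour. Linalool rats differed from control rats by -0.19 (SE 0.17), and rats restrained with linalool from rats restrained without it by -0.26 (SE 0.17), with overlap between the groups in both comparisons. The interaction, which is the restraint difference with linalool minus that without it, was -0.07 (SE 0.24). The comparisons with control share the control rats, and those with stress share the stress rats.

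The size of the Rbm3 difference under linalool moved with the BioC level. Within the 13 BioC-low arrays it was -0.43 (3 rats against 2), within the 3 BioC-high arrays -1.41 (1 rat against 2), and with the BioC level as a block -0.78 (SE 0.18). Stress with linalool rat 2, the lowest of all 16 rats at 8.57, is 1 of the BioC-high arrays. In stress minus control, where both groups are BioC-low throughout, the difference fitted on those arrays was -0.69. In the deposited signals, which were not brought to a common level, Rbm3 was 405 to 708 in stress with linalool, 543 to 766 in stress, 598 to 941 in linalool and 766 to 1173 in control rats. There the groups overlapped in both restraint comparisons, and the differences were -0.59 and -0.42. All probe sets shifted by a median of 0.10 and 0.32 in those signals, and relative to that shift the Rbm3 differences were -0.69 and -0.74.

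The Cirbp probe sets did not all give the same picture. Cirbp A and Cirbp B were lower in stress than in control rats and higher with linalool among restrained rats, by different amounts. Cirbp C moved little. The annotation table ties Cirbp A to a curated mRNA record, and Cirbp B and C, like the Rbm3 probe set, to expressed sequence tags. Which part of the transcript each one reads was not analysed here. The brightest, Cirbp C, stood for the gene where 1 probe set per gene was used.

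In Cirbp B, the signal was 119, 138, 260 and 203 in the rats restrained with linalool, 129, 148, 92.0 and 88.9 in those restrained without it, 225, 245, 240.0 and 279 in linalool rats, and 224, 303, 293 and 218 in control rats. Every stress rat lay below every control rat, also in the deposited signals. The rats restrained with linalool were split, with rats 1 and 2 near the stress rats and rats 3 and 4 near or among the unrestrained ones.

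This probe set averaged 7.00 ± 0.32 in stress and 8.09 ± 0.23 in control rats (SD, n = 4), a difference of -1.09 (SE 0.20), or 47.0% of the control level. Rats restrained with linalool averaged 7.56 ± 0.47 and linalool rats 8.04 ± 0.12, a difference of -0.48 (SE 0.20). Within the BioC-low arrays that difference was -0.30, within the BioC-high arrays -0.85, and with the values as deposited -0.12, or -0.44 relative to their median shift. Among restrained rats those with linalool were higher by 0.55 (SE 0.20), with overlap, and the interaction was 0.61 (SE 0.28).

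In Cirbp A, the signal was 121, 146, 159 and 149.9 in stress with linalool, 115, 102, 77.6 and 117 in stress, 153, 161, 139 and 157 in linalool, and 98.8, 216, 230.0 and 149 in control rats. All rats restrained with linalool lay above all rats restrained without it. Control rat 1 lay among the stress rats, so stress and control rats overlapped. That rat's array also had the highest 3'/5' ratio of beta-actin of all 16, at 2.30 on the log2 scale, a sign of RNA integrity. Control rat 3, with the highest Cirbp A signal, had the lowest ratio of all 16, at 1.06, and control rats 2 and 4 had 1.38 and 1.41. Refits with 1 rat left out gave stress minus control differences from -0.84 to -0.48 in Cirbp A. The refit with this ratio as a covariate lay inside that range. Beyond that, the part of RNA integrity in the Cirbp A values was not tested.

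Its stress minus control difference was -0.63 (SE 0.19), with means of 6.88 ± 0.23 in stress and 7.50 ± 0.51 in control rats (SD, n = 4). With linalool the difference between restrained and unrestrained rats was -0.08 (SE 0.19; 0.27 in the values as deposited, or -0.05 once the median shift there is taken off). Rats restrained with linalool averaged 7.32 ± 0.15, which was 0.44 (SE 0.19) above the stress rats, and the interaction was 0.55 (SE 0.26).

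Cirbp C moved least. It read 331, 325, 424 and 447 in stress with linalool, 393, 419, 360.0 and 385 in stress, 312, 444, 358 and 434 in linalool, and 422, 556, 425 and 338 in control rats, and the groups overlapped in every comparison. Its difference was -0.14 (SE 0.15) for stress minus control, -0.02 (SE 0.15) for stress with linalool minus linalool and -0.08 (SE 0.10) for the average stress effect. The last of these turned to 0.15 with the values as deposited and was -0.06 relative to their shift. It was 0.05 within the BioC-low arrays. Linalool minus control gave -0.16 (SE 0.15) in Cirbp C, -0.06 (SE 0.20) in Cirbp B and -0.11 (SE 0.19) in Cirbp A, with overlap in each.

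The Cirbp probe sets can be set against each other inside each array, where a scale factor common to the array cancels. An array effect that depends on the signal level would not cancel. The log2 ratio of Cirbp B to Cirbp C was -1.12 ± 0.31 in stress with linalool, -1.81 ± 0.32 in stress, -0.64 ± 0.16 in linalool and -0.76 ± 0.18 in control rats (SD, n = 4). It ran from -2.17 to -1.50 in stress and from -0.95 to -0.55 in control rats, so no stress rat reached the range of the control rats. The ratio restates, from the same arrays, the unequal differences of these 2 probe sets given above, and is no separate evidence for them. How often ratios of other probe set pairs separate the groups was not counted. The ratio of Cirbp A to Cirbp C was -1.95 ± 0.24 in stress and -1.40 ± 0.55 in control rats, with overlap. It was -1.38 ± 0.18 in stress with linalool and -1.33 ± 0.19 in linalool rats. Only differences of these ratios between groups have a meaning, since a probe set's brightness also depends on its probes.

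**Figure D2:**
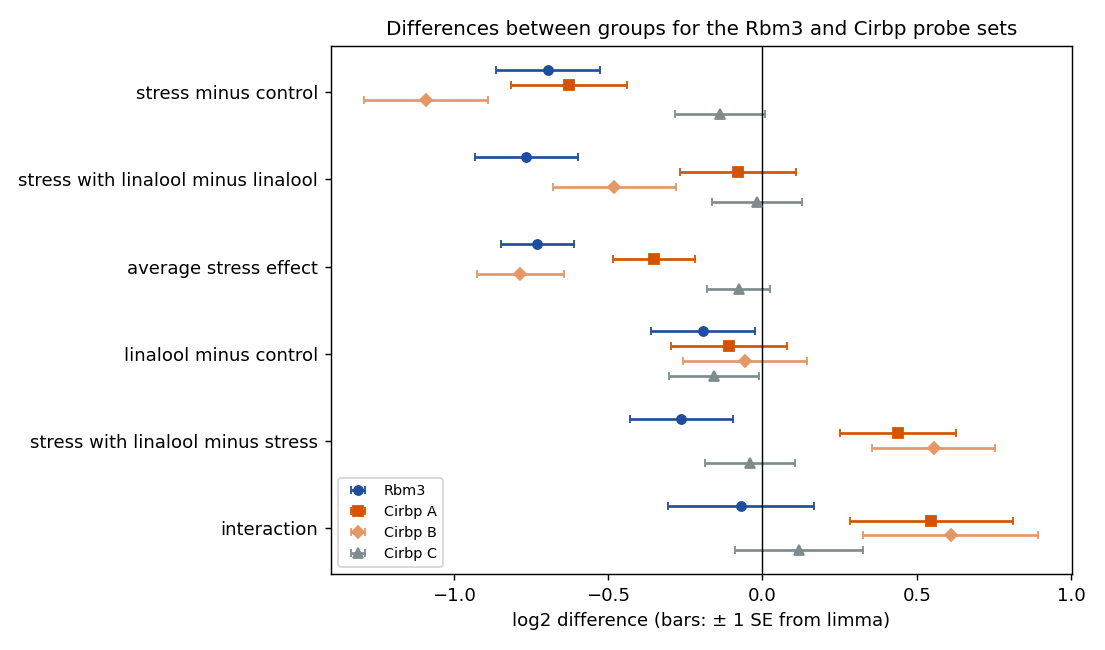
Log2 differences of the Rbm3 probe set and the 3 Cirbp probe sets for 6 comparisons, as points with bars of 1 standard error from limma on each side. Rbm3 lies between -0.69 and -0.76 in the restraint comparisons, while the Cirbp probe sets spread from -1.09 to -0.14 in stress minus control and from -0.04 to 0.55 in stress with linalool minus stress.

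Counts of calls over the whole array give the background for these values, where a call is an adjusted p under 0.05 in limma. In stress minus control 1 of the 4 probe sets was called lower (Cirbp B), against 0.268% of 18625 probe sets, and 2 of 4 did not overlap on the low side, against 2.57%. In stress with linalool minus linalool 1 of 4 was called lower (Rbm3), against 0.569%, and the same 1 did not overlap, against 6.63%. For the average stress effect 2 of 4 were called lower (Rbm3 and Cirbp B), against 1.58%. In stress with linalool minus stress 0 of 4 were called by limma, against 0.65% in either direction, and Cirbp A did not overlap on the high side, against 5.03%. For linalool minus control and for the interaction 0 of 4 were called, against 0% of all probe sets, of which 1837 and 1493 had an unadjusted p under 0.05. The pair was chosen with these contrasts known, so nothing is read from the counts.

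Rbm3 and Cirbp were also compared from rat to rat inside groups. Over the 16 deviations from group means, r was 0.70 between Cirbp B and Cirbp C, 0.50 between Cirbp B and Cirbp A, and 0.41 between Cirbp A and Cirbp C, as a description of values that share an array. Rbm3 had an r of 0.41 with Cirbp C, 0.02 with Cirbp A and -0.10 with Cirbp B on the same measure. Over all 16 rats, group differences included, Rbm3 had an r of 0.53 with Cirbp B, 0.35 with Cirbp A and 0.41 with Cirbp C. There r was 0.75 between Cirbp A and Cirbp B, 0.48 between Cirbp B and Cirbp C, and 0.38 between Cirbp A and Cirbp C.

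Deviations inside groups set the standard errors of the comparisons but not the size of the group differences, and 6 relations over them were tested with exact two-sided permutation within groups. For Rbm3 with Cirbp C over 16 rats, r was 0.41 (exact permutation p = 0.119, adjusted 0.496) and Spearman's rho 0.29 (p = 0.285, adjusted 0.785), with an r of 0.35 without control rats 2 and 4. Within the BioC-low arrays this r was 0.02. Over the 8 restrained rats r was 0.06 (exact permutation p = 0.944, adjusted 0.944) and rho -0.05 (p = 0.962, adjusted 0.962), with an r of -0.60 without stress with linalool rats 2 and 4. Within the BioC-low arrays the r over restrained rats was -0.58. None of the 6 relations passed the test.

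Hspa1a, the inducible heat shock protein 70 gene, varied far more among restrained rats than Rbm3 did. Its signal was 7281, 6307, 3426 and 2118 in stress with linalool, 3519, 3798, 368 and 1753 in stress, 229 to 306 in linalool and 137 to 152 in control rats. Its probes cannot be kept apart with certainty from the nearly identical Hspa1b. The stress rats with the highest Hspa1a, rats 1 and 2, had the lowest Rbm3 of that group, and stress rat 3, with the lowest Hspa1a, had an Rbm3 signal of 723. Stress with linalool rat 1 had both the highest Hspa1a and the highest Rbm3 of its group.

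Over the 8 restrained rats Rbm3 and Hspa1a deviations had an r of -0.53 (exact permutation p = 0.203, adjusted 0.496) and a rho of -0.43 (p = 0.330, adjusted 0.785), and an r of -0.49 without stress rat 3 and stress with linalool rat 4. Over 16 rats r was -0.43 (exact permutation p = 0.248, adjusted 0.496) and rho -0.30 (p = 0.393, adjusted 0.785), and r was -0.23 without stress rats 2 and 3. Within the BioC-low arrays these were -0.54 for the restrained and -0.48 for all. With the rat number in the titles as a block they were -0.08 for the restrained and -0.36 for all. With the values as deposited they were -0.45 and -0.18, so the size of this r depended on the setting. Cirbp C and Hspa1a had an r of -0.05 over 16 rats (exact permutation p = 0.784, adjusted 0.941; rho -0.14, p = 0.564, adjusted 0.846) and of -0.14 over the restrained rats (exact permutation p = 0.689, adjusted 0.941; rho -0.14, p = 0.719, adjusted 0.863). Without the 2 rats farthest on the Hspa1a axis these were -0.36 and -0.25. Within the BioC-low arrays they were -0.01 and -0.02.

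**Figure D3:**
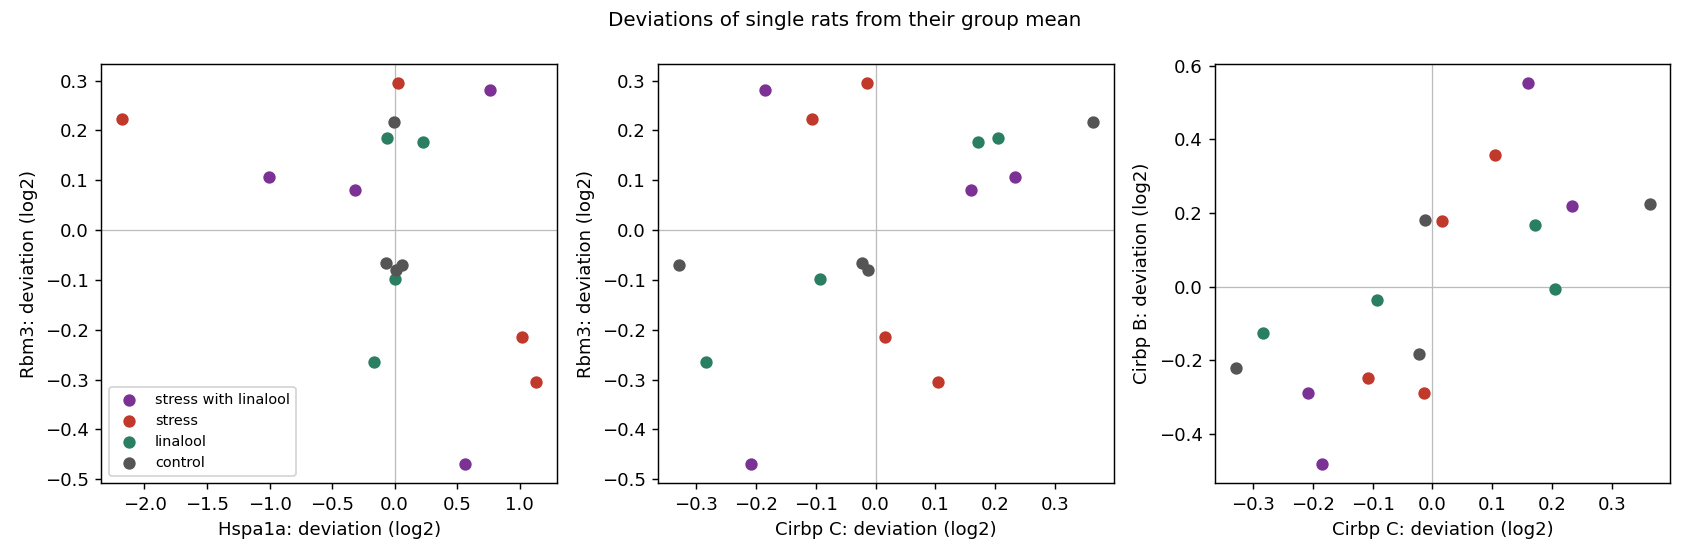
Deviations of each rat from its group mean, in log2 units, for Rbm3 against Hspa1a, Rbm3 against Cirbp C, and Cirbp B against Cirbp C. Each point is a rat, coloured by group, and the correlations over 16 rats are -0.43, 0.41 and 0.70 from left to right.

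Heat-inducible chaperone genes were higher in restrained rats, where Rbm3 was lower. Of 23 measured members of that list 17 rose and 0 fell for the average stress effect, which is 73.9% of the list against 4.24% of all probe sets, and the list's median difference was 0.42 against -0.01 over all probe sets. Hspa1a rose by 3.70 (SE 0.38, limma adjusted p = 4.27e-05), Hspb1, a small heat shock protein gene, by 2.13 (SE 0.31, adjusted p = 0.000781), Dnajb1, a cochaperone of heat shock protein 70, by 1.51 (SE 0.15, adjusted p = 2.34e-05), Chordc1, a partner of heat shock protein 90, by 0.85 (SE 0.11, adjusted p = 0.000339), and Hspb8 by 0.77 (SE 0.10, adjusted p = 0.000258). Hsf1, the master factor of the heat shock response, was at 0.06 (SE 0.10, adjusted p = 0.801) and did not pass. In stress minus control 5 of 23 rose, 21.7% against 0.897% of all probe sets, and in stress with linalool minus linalool 14 of 23, 60.9% against 1.69%, and 0 fell in either. With the BioC-low arrays only, 13 were called for the average stress effect. The list was chosen with earlier results of these data known, and is no independent evidence of its direction.

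Clock genes, whose RNAs are targets of both proteins in mouse cells, moved in both directions. Of 20 measured, 3 rose and 2 fell for the average stress effect, against 4.24% of all probe sets called, and the list's median was 0.01 against -0.01 over all. The period genes Per1 and Per2 rose by 1.05 (SE 0.11, limma adjusted p = 7.61e-05) and 0.49 (SE 0.06, adjusted p = 0.000336), and Nfil3, a repressor of clock output genes, by 0.81 (SE 0.14, adjusted p = 0.00281). Dbp, a clock output factor, fell by 0.30 (SE 0.08, adjusted p = 0.0328), and Bhlhe40, a repressor in the clock loop, fell by 0.49 (SE 0.13, adjusted p = 0.0462). In stress minus control 2 of 20 rose (Per1 and Per2) and 0 fell, against 0.897% of all probe sets, and in stress with linalool minus linalool 3 rose (Per1, Per2 and Nfil3) and 0 fell, against 1.69%. On the BioC-low arrays alone, 3 clock genes were called for that effect.

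Among other genes of proteins with an RNA recognition motif the share called was near that of the whole array. For the average stress effect 11 of 46 measured relatives had an unadjusted p under 0.05, against 3526 of 18625 probe sets. The list's median difference was 0.05, with a range from -0.26 to 0.28. By the adjusted p 1 of the 46 rose and 0 fell, 2.17% of the list against 4.24% of all probe sets. The gene was Tra2a, a splicing activator (0.28, SE 0.07, limma adjusted p = 0.0407), and with 1 rat left out the count ran from 0 to 2. The lowest value was that of Rbmx, a nuclear ribonucleoprotein gene, at -0.26 (SE 0.08, adjusted p = 0.0821). Rbm3 at -0.73 and Cirbp B at -0.78 lay below that range, and Cirbp A at -0.35 as well, while Cirbp C at -0.08 lay inside it. Each relative was read from its brightest probe set only, which for Cirbp is Cirbp C. Rbm3 and Cirbp were chosen with their differences known, so nothing is read from their place against this range. In stress minus control and in stress with linalool minus linalool limma called 0 of the 46, against 0.897% and 1.69% of all probe sets. Of the 46, 9 and 6 had an unadjusted p under 0.05, against 2349 and 3034 of 18625 probe sets. In stress with linalool minus stress 1 of 46 was called, against 0.65% of all probe sets. It was Tia1, a stress granule protein gene, which fell by 0.49 (SE 0.10, limma adjusted p = 0.0376), and on the BioC-low arrays limma called 0 of all probe sets in that comparison.

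Of 20 measured regulators, partners and targets, 2 rose and 0 fell for the average stress effect, against 4.24% of all probe sets called. They were Clk4 (0.47, SE 0.09, limma adjusted p = 0.00724) and Clk1 (0.34, SE 0.07, adjusted p = 0.0113), kinases of splicing factors whose activity is known to rise as the temperature falls. Clk1 was the 1 of 20 that rose in stress minus control (0.44, SE 0.10, adjusted p = 0.0495), against 0.897% of all probe sets, where Clk4 was at 0.34 (adjusted p = 0.264). In stress with linalool minus linalool the 1 of 20 was Clk4 (0.59, SE 0.13, adjusted p = 0.0261), against 1.69%, where Clk1 was at 0.25 (adjusted p = 0.228).

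No other gene on that list passed in any comparison. Rtn3, the target through which RBM3 acts on synapses in mice, was at -0.05 (SE 0.10, adjusted p = 0.842) for the average stress effect, and Ntrk2, the BDNF receptor gene upstream of RBM3 in mice, at 0.12 (SE 0.06, adjusted p = 0.324). Txn1 and Rpa2, whose mRNAs CIRBP binds in human cells, were at -0.13 (SE 0.05, adjusted p = 0.177) and -0.04 (SE 0.08, adjusted p = 0.825). Sp1, which binds the cold-responsive Cirbp element in mouse cells, was at -0.01 (SE 0.06, adjusted p = 0.94), and Gsk3b, a kinase of CIRBP, at -0.03 (SE 0.09, adjusted p = 0.909). Tnpo1, a nuclear import receptor of CIRBP, was at 0.15 (SE 0.11, adjusted p = 0.492), and Srsf5, a splicing factor, at -0.12 (SE 0.08, adjusted p = 0.422).

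Of 10 measured genes of thermoregulation and thermosensing, 1 rose and 1 fell for the average stress effect, against 4.24% of all probe sets called in either direction. Il1r1, the receptor of the fever-inducing interleukin 1, rose by 0.49 (SE 0.10, limma adjusted p = 0.0143), and Trpv2, an ion channel gene, fell by 0.48 (SE 0.11, adjusted p = 0.0266). Limma called 0 of these genes in the BioC-low arrays. In both single restraint comparisons limma called 0 of 10. In stress minus control 3 of the 10 had an unadjusted p under 0.05, against 2349 of 18625 probe sets. In stress with linalool minus linalool 2 of the 10 did, against 3034 of 18625.

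**Figure D4:**
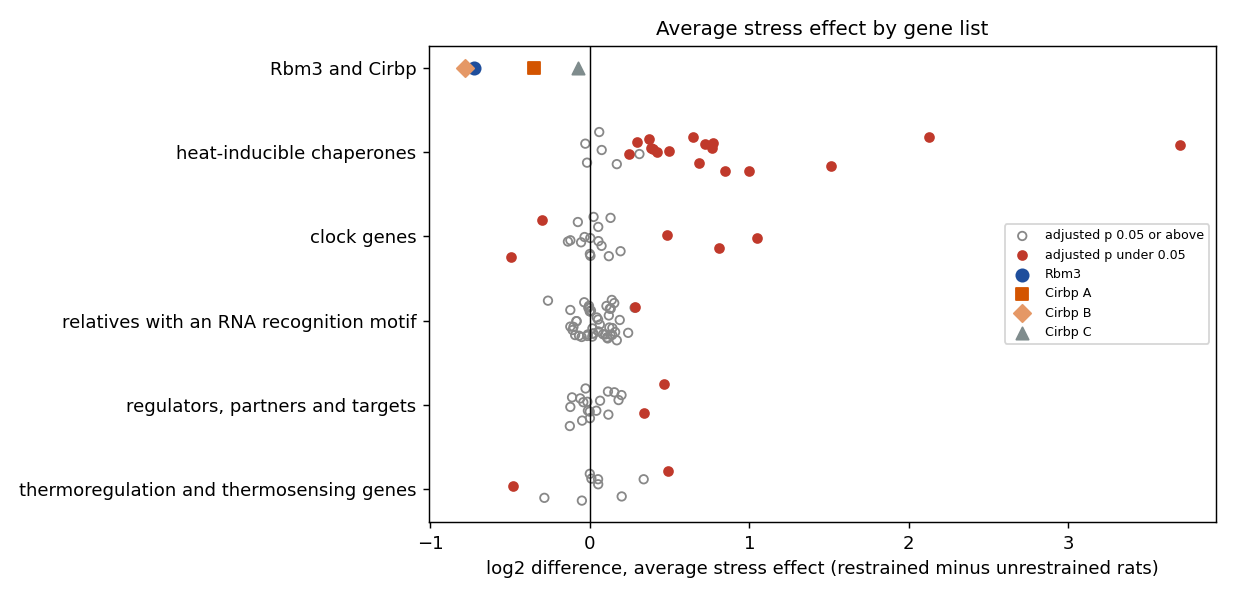
Average stress effect as a log2 difference (restrained minus unrestrained rats) for the Rbm3 and Cirbp probe sets in the top row and for the measured members of 5 gene lists below, with filled red points for genes past the test. The chaperones lie mostly right of 0, with 17 of 23 past the test. Rbm3, Cirbp B and Cirbp A lie left of it at -0.73, -0.78 and -0.35, and Cirbp C lies close to 0 at -0.08 (SE 0.10).

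Genes were ranked by how closely their signals followed Rbm3 over the 16 arrays, which include the group differences, among 10247 genes. The closest were Zfp36l2, an RNA-binding protein gene of mRNA decay (r = 0.88, rho 0.84), Acat1, a mitochondrial acetyl-CoA enzyme gene (r = 0.88, rho 0.87), Rasl12 (r = 0.87, rho 0.84), Nrarp, a Notch target (r = 0.87, rho 0.80), and Dipk1c (r = 0.87, rho 0.78). Inside groups r was 0.46 for Zfp36l2 and 0.38 for Nrarp, but 0.82 for Acat1, 0.85 for Rasl12 and 0.71 for Dipk1c. The genes most opposed to Rbm3 were Hsp90b1, the endoplasmic reticulum form of heat shock protein 90 (r = -0.89, rho -0.89), Dnaja1, a cochaperone gene (r = -0.89, rho -0.91), and Casp2, a caspase gene (r = -0.89, rho -0.89). Their r inside groups was -0.56, -0.57 and -0.68.

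For Cirbp the nearest genes differed between probe sets. Nyap1 (r = 0.89), Guk1 (0.88), Lrrc24 (0.85), Mn1 (0.85) and Map2k2 (0.84) followed Cirbp B most closely, and Rbpms, itself an RNA-binding protein gene (-0.86), Sf3b1, a splicing factor gene (-0.85), and Nktr (-0.85) opposed it most. For Cirbp A they were Atat1 (0.89), Hcfc1r1 (0.89), Puf60, a splicing factor gene (0.87), Denr (0.84) and Dmtn (0.84), with Lto1 (-0.91), Mycbp2 (-0.88) and Epb41 (-0.86) most opposed. For Cirbp C they were Schip1 (0.83), Fam76a (0.80), Plpp3 (0.80), Pepd (0.78) and Zfp503 (0.77), with Yars1 (-0.83), Hdac4 (-0.81) and Wdr26 (-0.79) most opposed. No gene stood in the list of more than 1 probe set. All values share arrays and their normalization, and the largest of many correlations are high in part by selection.

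Among 11 classes of cell type and tissue markers, calls lay in 3. For the average stress effect 3 of 7 microglial markers fell, against 1.58% of all probe sets called lower, namely Gpr34 (-1.17), P2ry12 (-0.998) and Cx3cr1 (-0.49), with limma adjusted p of 0.000585, 0.000236 and 0.006, and 0 rose. The summed signal of all 7 overlapped between restrained and unrestrained rats with linalool and did not without it, at 2166 to 3675 in stress with linalool, 1985 to 2462 in stress, 2242 to 3019 in linalool and 2583 to 2839 in control rats. Of the oligodendrocyte and endothelial markers 1 of 5 each fell, against the same 1.58%, Opalin by 0.76 (adjusted p = 0.0302) and Slco1a4 by 0.34 (adjusted p = 0.047). Summed oligodendrocyte signals were 18042 to 20541 in stress with linalool, 19443 to 21479 in stress, 19564 to 22397 in linalool and 20883 to 25078 in control rats, and summed endothelial signals 1917 to 2734, 2340.5 to 3428, 2555 to 2880 and 2768 to 3463 in the same groups. Their part in the Rbm3 and Cirbp differences was not tested.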

How the data were processed

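The deposited values were signal intensity per probe set, 1 array per rat. They were made with MAS5, per the submitters' processing notes, and its version and scaling target are not given in the sources used here. Deposited intensity was positive and linear, but arrays were not at a common level. The arrays have no read depth, and their number limits the precision. After 57 control probe sets were left out, log2 values were quantile-normalized, returned to the linear scale and given a pseudocount of 16 before the final log2, so that fold changes of dim genes are understated. Probe sets at or above the 40th percentile of the mean log2 value were kept (18625 of 31042).

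Of the probe sets 20826 had 1 symbol, 436 several and 9780 none in the platform table, and 0 symbols changed when checked against RefSeq by gene ID. Each gene of a list was represented by its brightest kept probe set. One group-means model was fitted with limma 3.58.1 in R 4.3.3 (lmFit, eBayes, two-sided, 12 residual degrees of freedom) and adjusted by Benjamini-Hochberg over the kept probe sets. It was checked on simulated data. Permutations ran in Python 3.11.15. The limma p-values set a group difference against the spread between rats, read on 1 array each and moderated across probe sets. Permutation p-values refer to the pairing of deviations inside groups. Members, lists and the rule for named genes were chosen with earlier results of these data known. The rule took all Rbm3 and Cirbp probe sets, 5 fixed chaperone and clock genes, 11 fixed regulators and targets of which Prmt1 was not measured, up to 4 called members per list and comparison, and the 5 most and 3 least correlated genes of each Rbm3 or Cirbp probe set. Rbmx, Hsf1 and Bhlhe40 were named after their values were seen.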

Additional observations from a re-analysis of the deposited data

Results flagged for a closer look

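Of 20 sets of 4 rats checked (the Rbm3 and Cirbp probe sets and Hspa1a in each group), 1 held a rat far from the others, which is what chance gives for 1 in 20. Rbm3 in control rat 2 was 10.21 on the log2(normalized signal + 16) scale, against 9.92 to 9.93 in the other control rats, a gap of 0.949 of the group's range. In the deposited signals the same rat had the lowest Rbm3 value of its group, 766, on the array with the lowest median of all 16 (67.03). Without that rat the Rbm3 difference was -0.62 (SE 0.18) for stress minus control and -0.69 (SE 0.12) for the average stress effect.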

How the results depend on the processing

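Counts of calls were refitted under 26 other settings. The Rbm3 and Cirbp differences were refitted under 24 of these, since a filter does not change them. The within-group relations had no refit with another filter or with the beta-actin ratio. Rbm3 stayed lower in stress than in control rats and lower for the average stress effect in every setting, but not every setting could move it. The replicate block leaves each group difference as it is. For stress minus control, the BioC block and the BioC-low arrays keep the same stress and control rats. Leaving out a rat of the linalool or stress with linalool group keeps them too. In stress with linalool minus linalool Rbm3 was -0.42 with the values as deposited and -0.43 in the BioC-low arrays. Its interaction was 0.27 within the BioC-low arrays. Cirbp C was 0.33 for stress with linalool minus linalool, 0.15 for the average stress effect and 0.37 for the interaction with the values as deposited, and 0.24 and 0.38 for the first and last of these in the BioC-low arrays. With another probe set standing for the gene, Cirbp A gave -0.63 for stress minus control, -0.35 for the average stress effect, 0.44 for stress with linalool minus stress and 0.55 for the interaction, and Cirbp B gave -1.09, -0.78, 0.55 and 0.61 for these and -0.48 for stress with linalool minus linalool. The cause of these moves was not tested.

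Leaving out 1 rat, Rbm3 ran from -0.79 to -0.59 for stress minus control, -0.86 to -0.61 for stress with linalool minus linalool, -0.78 to -0.65 for the average stress effect, -0.25 to -0.10 for linalool minus control, -0.36 to -0.11 for stress with linalool minus stress and -0.17 to 0.09 for the interaction, and Cirbp C from -0.25 to -0.01, -0.11 to 0.05, -0.13 to -0.02, -0.27 to -0.04, -0.12 to 0.03 and -0.003 to 0.23 in the same order. The 6 within-group relations stayed above an adjusted p of 0.05 in every setting under which they were refitted, also with the other Cirbp probe sets, which were added after seeing the data.

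Probe sets called in stress minus control, 167, became 53 as deposited, 102 with no filter, 95 in the BioC-low arrays, 258 with the beta-actin ratio, and 69 to 203 without 1 rat (without stress rats 1, 2 and 4, 102, 69 and 80; without control rats 2 and 3, 80 and 76). For stress with linalool minus linalool, 315 became 1111, 185, 75 and 566 in these settings, 499 with the BioC block and 112 to 400 without 1 rat (112 without each of stress with linalool rats 1 and 2; without linalool rats 1 and 3, 149 and 126). For the average stress effect, 790 became 523 with no filter, 454 in the BioC-low arrays and 488 to 1000 without 1 rat (522 when stress with linalool rat 2 was left out, 507 and 517 for stress rats 1 and 2, 525 and 488 for linalool rats 1 and 3). For stress with linalool minus stress, 121 became 33, 46, 0 and 389 (deposited, no filter, BioC-low, beta-actin), 54 with the BioC block and 29 to 233 without 1 rat (59, 29, 42 and 64 without stress with linalool rats 1 to 4; 33, 35 and 44 without stress rats 2 to 4; 233 without control rat 1). Linalool minus control gave 1 with the beta-actin ratio and otherwise 0. The interaction gave 1 as deposited, with a pseudocount of 64 and with a filter at the 60th percentile, 2 with the BioC block, 14 with the beta-actin ratio and 0 to 1 without 1 rat. For the average stress effect, clock genes called were 3 in place of 5 as deposited, with no filter, with the 60th percentile and in the BioC-low arrays, and 3 to 5 without 1 rat. RNA recognition motif genes were 2 as deposited, 0 with no filter, 3 with the BioC block, 2 with the replicate block and 0 to 2 without 1 rat, and thermoregulation genes 1 with no filter, 0 with the 60th percentile and in the BioC-low arrays, and 1 to 3 without 1 rat. The chaperone count stayed at 16 to 17 without 1 rat.

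Rats with the same number in the titles did not deviate together, and 4 of 24 pairs correlated above 0.1 (mean 0.01). Each number occurs once per group, so a block on it cannot move a group difference. With the replicate block the Rbm3 and Cirbp C relation over 16 rats had an r of 0.50.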
